A study of Homo sapiens with 9 samples.

Results

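The immediate early genes examined here were EGR1, the AP-1 subunit genes FOS, FOSB, FOSL1, FOSL2, JUN and JUNB, and the early response genes ATF3, IER2 and IER3. The 10 genes were taken by name out of 59293 genes with a transcript in the data. All 10 passed the filter on low counts, as did 15139 genes in all.

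RNA-seq of polyadenylated RNA was done on 9 libraries of MCF10A-YAP cells, 3 per group. MCF10A is a non-transformed line of human breast epithelial cells, and every group, the controls included, overexpressed constitutively active YAP, a coactivator of transcription. Controls carried a non-targeting single guide RNA (sgRNA), and the other groups carried 1 of 2 sgRNAs against TRAM2, called TRAM2-KO1 and TRAM2-KO2. TRAM2 encodes a component of the translocon, the channel that takes new proteins into the endoplasmic reticulum. The labels describe cells transduced with a vector and selected with antibiotic and do not call them clones. All cells were harvested at 70 to 80% confluence in medium with 5% horse serum, EGF at 10 ng/ml, insulin at 10 μg/ml and hydrocortisone at 0.5 μg/ml. When the medium was last changed before harvest is not stated in the sources used here. The libraries of a group are lettered A to C. The series text calls replicates biological, but nothing tells how the cultures were kept apart, so p-values measure the spread between these libraries, which may be technical.

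Immediate early genes are transcribed within minutes of a stimulus from transcription factors already present in the cell, with no new protein synthesis needed. Growth factors act on many of them through the ERK kinase cascade and the serum response factor SRF with its ternary complex partners, and their mRNAs are short-lived. AP-1 is a dimer in which a Jun protein pairs with a Fos, Jun or ATF protein. EGR1 is a zinc finger factor that binds GC-rich sites.

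Promoter sequences are shown for the 3 genes whose levels differed between groups, EGR1, ATF3 and JUNB. RefSeq (GRCh38.p14) gave promoter windows of 250 bases before to 50 bases after the start for 8 of the 10 genes, ATF3 with 2. FOSL1 and IER3 had no entry. Capitals mark a match to any of 5 motifs, searched on both strands: the CArG box bound by SRF, the AP-1 site TGANTCA, the cyclic AMP response element TGACGTCA, the EGR site GCGNGGGCG and the TATA box TATAAA. The windows lie at chr5:138465229-138465528 (EGR1, plus strand), chr1:212565157-212565456 (the first ATF3 window, plus strand), chr1:212614768-212615067 (the second ATF3 window, plus strand) and chr19:12791236-12791535 (JUNB, plus strand).
EGR1: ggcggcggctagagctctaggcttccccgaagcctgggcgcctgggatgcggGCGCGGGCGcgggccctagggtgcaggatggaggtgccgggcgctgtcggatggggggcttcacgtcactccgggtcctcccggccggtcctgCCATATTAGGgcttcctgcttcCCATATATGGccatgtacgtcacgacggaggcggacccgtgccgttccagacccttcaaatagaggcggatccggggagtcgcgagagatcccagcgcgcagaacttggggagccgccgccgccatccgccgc
ATF3, first window: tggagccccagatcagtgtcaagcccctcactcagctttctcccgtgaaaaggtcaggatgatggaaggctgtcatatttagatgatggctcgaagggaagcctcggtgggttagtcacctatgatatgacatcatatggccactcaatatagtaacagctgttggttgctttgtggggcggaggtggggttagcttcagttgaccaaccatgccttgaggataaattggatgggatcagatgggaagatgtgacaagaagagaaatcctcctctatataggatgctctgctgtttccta
ATF3, second window: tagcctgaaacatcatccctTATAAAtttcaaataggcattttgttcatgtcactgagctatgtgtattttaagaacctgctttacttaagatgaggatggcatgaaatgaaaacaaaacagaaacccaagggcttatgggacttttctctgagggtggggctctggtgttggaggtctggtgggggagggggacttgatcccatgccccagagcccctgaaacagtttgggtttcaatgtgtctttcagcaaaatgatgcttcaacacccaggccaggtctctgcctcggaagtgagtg
JUNB: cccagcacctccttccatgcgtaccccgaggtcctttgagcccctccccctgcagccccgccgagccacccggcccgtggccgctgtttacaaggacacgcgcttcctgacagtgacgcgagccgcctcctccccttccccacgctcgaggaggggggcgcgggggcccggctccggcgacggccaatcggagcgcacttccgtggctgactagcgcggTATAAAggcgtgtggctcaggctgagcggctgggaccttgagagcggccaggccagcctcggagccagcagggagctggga
The EGR1 window held 2 CArG boxes, with their first bases at -105 and -83 (the start is base 1, and the base before it -1), where 1.29% of the 35116 promoters in the table held any. Its EGR site, at base -198, is a sequence found in 9.43% of promoters. The TATA box letters, in 11.5% of promoters, lay at base -31 in JUNB, at base -33 in FOS and at base -30 in FOSB. In the second ATF3 window the same letters lay at base -230, much further from the start, and whether they act as a TATA box was not tested. Of the 8 genes with a window, only FOSL2 held an AP-1 site (7.71% of promoters), at base 5. None held the cyclic AMP response element as the exact letters TGACGTCA (1.85%). Variants of the motifs with other letters were not searched, so a window without a match may still hold one. No motif overlapped another in the windows printed. These matches describe letters only, and the present data do not measure binding.

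TRAM2, the targeted gene, lay between 464 and 481 CPM (counts scaled to a common library total) in controls, 203 and 219 with TRAM2-KO1 and 210 and 216 with TRAM2-KO2. It fell by 1.17 (SE 0.0326) on the log2 scale with TRAM2-KO1 and by 1.16 (SE 0.0325) with TRAM2-KO2, so that about as much remained in both. Libraries held 21.7 to 27.6 M estimated reads. Keratin genes of basal cells, KRT5 and KRT6A, were at 1038 CPM or more throughout, whereas KRT14 lay at 14.0 to 21.9 CPM. The basal factor gene TP63 had 1 to 3 reads. Of the luminal markers, KRT8 lay at 1003 to 1209 CPM, KRT18 at 747 to 859 CPM and GATA3 at 40.0 to 50.1 CPM. KRT19 had 5 to 17 reads, ESR1 62 to 116 and PGR 0. Fibroblast markers summed to between 2.40 and 3.55 CPM, with COL1A2 at 0 to 2 reads. Libraries B and C of TRAM2-KO1 stood apart, since their counts fell with GC content (a Spearman coefficient across genes of -0.528 and -0.359, against -0.0898 to 0.395 in the other libraries). JUNB, at 64.9% GC in its transcript, is at the 97th percentile of the genes tested. Of 9 basal epithelial markers tested, 3 fell with TRAM2-KO1 (ITGA6, CDH1 and LAMB3, by 0.36, 0.41 and 0.43), while 4 rose and 1 fell with TRAM2-KO2 (among them KRT6A, KRT17 and KRT14, which rose by 0.25, 0.27 and 0.48). Between the guides 7 were higher with TRAM2-KO2 and 0 lower, with CDH1 at 0.55. Their part in the results below was not tested. Of the luminal and fibroblast markers, 0 of 5 and 0 of 3 tested passed in edgeR in any comparison (at an unadjusted p, luminal markers gave 1 with TRAM2-KO1, 3 with TRAM2-KO2 and 1 between the guides, and fibroblast markers 0). DESeq2 gave 1 luminal marker, KRT18, with TRAM2-KO2. The blood and endothelial markers PTPRC, CDH5 and HBB had at most 1 read.

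EGR1 and ATF3 were the genes of the 10 that rose with TRAM2-KO1, and also those that rose with TRAM2-KO2, while FOSL1, FOSL2 and JUN stayed within a narrow range. JUNB differed between the guides. The plot of CPM by library shows all 10.

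**Figure D1:**
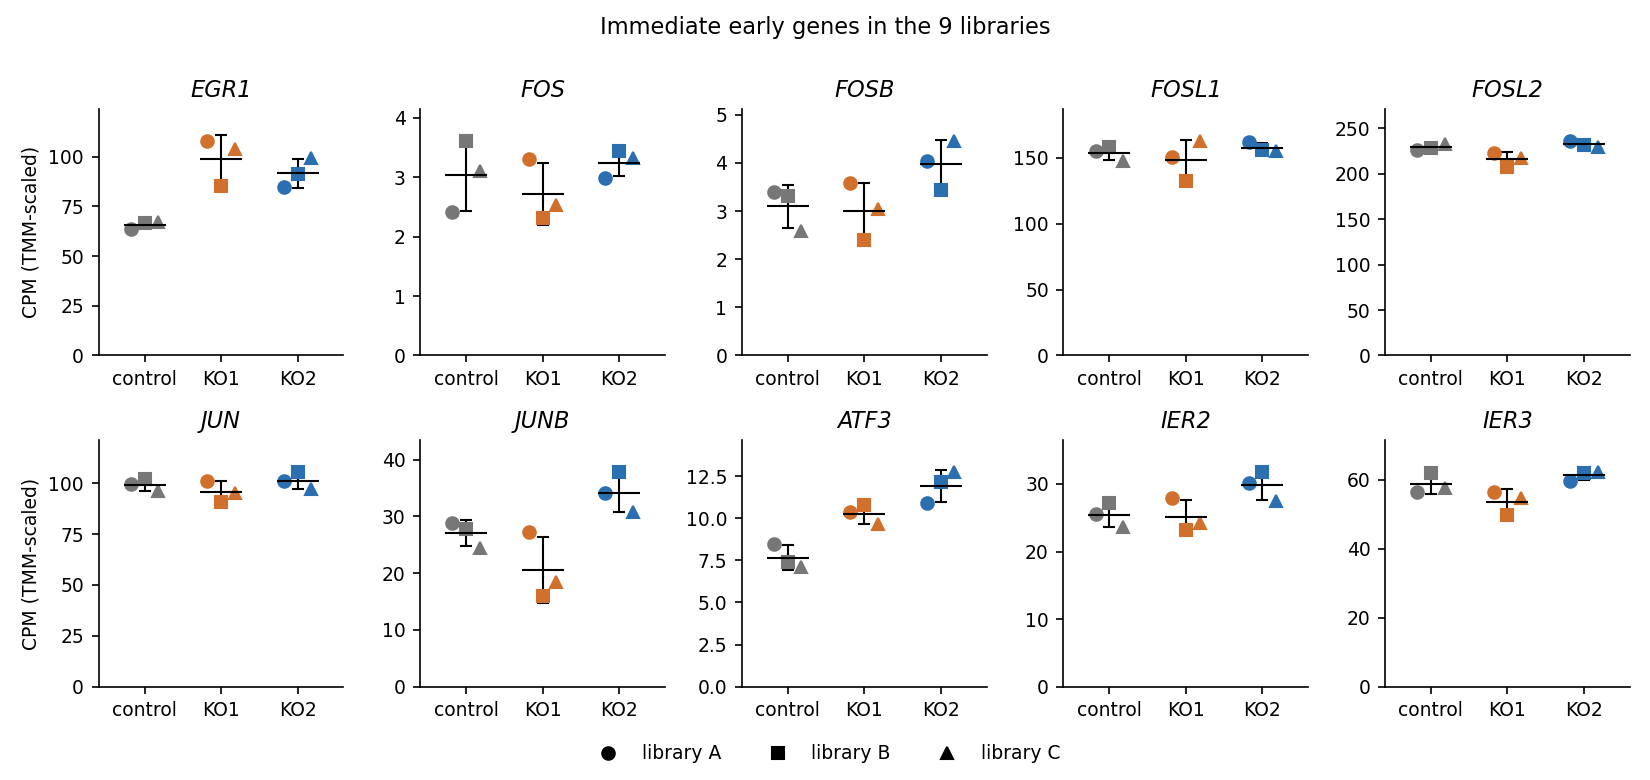
CPM (scaled by TMM, each vertical axis from 0) of the 10 genes in the 3 libraries of each group, with the letter of the library as the symbol and the mean ± SD in black. All EGR1 and ATF3 values of both TRAM2 guides lie above all controls, and JUNB of TRAM2-KO1 spreads from 16.0 to 27.2 CPM.

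In control cells the AP-1 genes differed by a wide margin in level. On the scale of TPM (reads per length, scaled to a constant total), which accounts for length, FOSL1 was highest at 146 ± 3.45 (SD, n = 3). FOSL1 encodes FRA1, a Fos protein without the activation domain of c-FOS. FOSL2, which encodes FRA2, followed at 65.7 ± 7.15 TPM, and IER3, a gene for a regulator of survival, at 65.5 ± 3.14 TPM. The values of FOSL2 and IER3 overlapped, whereas no other neighbours in the order did. A transcript of 393 bases, FOSL2-204, supplied 13.3, 0 and 18.9 TPM of FOSL2 in control libraries A, B and C. These came from 42.7, 0 and 59.6 estimated reads, so the order of FOSL2 and IER3 rests on few reads. JUN was at 33.3 ± 0.771 TPM and EGR1 at 25.2 ± 0.876 TPM. JUNB, at 18.9 ± 1.40 TPM, and IER2, a nuclear protein gene, at 14.7 ± 0.891 TPM, came next. ATF3, a stress-inducible bZIP repressor gene, was at 6.72 ± 0.917 TPM. FOS and FOSB, the classical inducible Fos genes, were lowest at 3.31 ± 1.33 and 1.43 ± 0.550 TPM. Of the FOS value of 4.84 TPM in control library A, 3.46 came from a single transcript of FOS that had 1.57 estimated reads, so read counts give a steadier picture of this gene: FOS had 50 to 91 reads in the 9 libraries and FOSB 52 to 122.

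FOSL1 and FOSL2 made up nearly all Fos family RNA in every group. In controls FOSL1 supplied 67.5% ± 2.68 of the summed Fos family TPM and FOSL2 30.3% ± 2.66, against 1.52% ± 0.567 for FOS and 0.657% ± 0.235 for FOSB. FOSL1 supplied 69.6% ± 0.462 with TRAM2-KO1 and 69.0% ± 0.649 with TRAM2-KO2, both within the range of 65.2 to 70.5% in controls. Of the Jun family, JUN supplied 53.1% ± 1.51 in controls, JUNB 30.1% ± 1.59 and JUND, a gene that is expressed more constantly, 16.8% ± 2.17. The JUNB share was 26.0% ± 4.26 with TRAM2-KO1 and 35.2% ± 1.33 with TRAM2-KO2. The lowest JUNB share with TRAM2-KO2, 34.2%, lay above the highest with TRAM2-KO1, 30.9%. The control shares of FOSL1 and FOSL2 vary with the TPM of FOSL2-204 given above. These shares are descriptions with no test of their own.

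**Figure D2:**
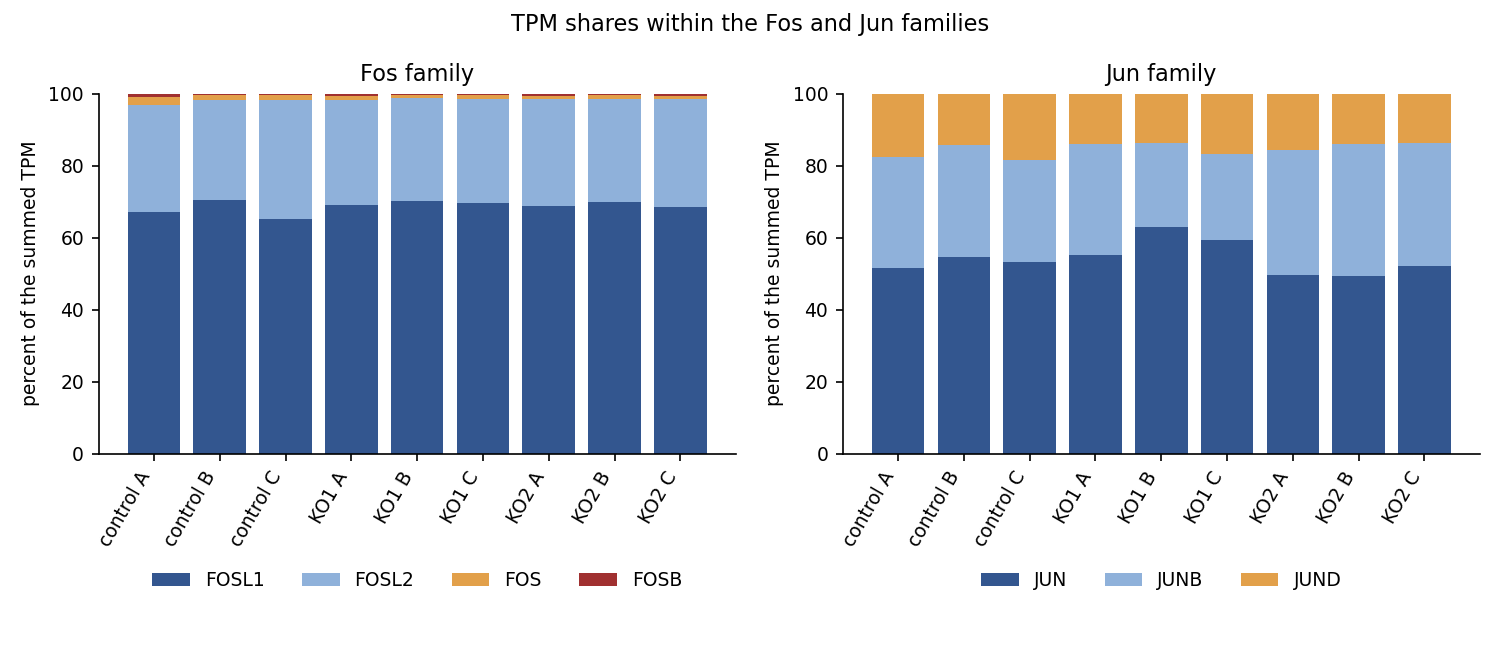
Share of each gene in the summed TPM of the Fos family (left) and the Jun family (right), as stacked bars from 0 to 100% for each of the 9 libraries. FOSL1 and FOSL2 fill nearly the whole Fos bar in all libraries, and the JUNB part is largest in the 3 libraries of TRAM2-KO2, at 34.2 to 36.7%.

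EGR1 was measured at 63.7, 66.7 and 67.0 CPM in control libraries A, B and C. With TRAM2-KO1 it was at 108, 85.2 and 104 CPM, and with TRAM2-KO2 at 84.6, 91.1 and 99.2 CPM. All 6 libraries with a TRAM2 guide lay above all 3 controls, and those of the 2 guides overlapped. EGR1 rose by 0.59 (SE 0.0837, 95% interval 0.41 to 0.78) on the log2 scale with TRAM2-KO1, a 1.51-fold level with an adjusted p of 0.00308 (edgeR quasi-likelihood test). With TRAM2-KO2 it rose by 0.48 (SE 0.0837, 0.29 to 0.66), or 1.39-fold, with an adjusted p of 0.00909. The difference between the guides was -0.11 (-0.29 to 0.07), with an adjusted p of 0.481. EGR1 (chromosome 5, 137801168 to 137804992 on GRCh37, plus strand) was quantified on 1 transcript of 2 exons, and 1562 to 2926 reads supported it. Without control library A its adjusted p with TRAM2-KO2 was 0.0627, in a range of 2.4e-06 to 0.0798 over 20 alternative settings, of which 17 passed. In bulk RNA, more cells with EGR1 and more EGR1 RNA per cell cannot be told apart, and the same holds for every gene below.

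ATF3 lay lower, at 8.49, 7.42 and 7.09 CPM in controls. It was at 10.4, 10.8 and 9.65 CPM with TRAM2-KO1 and at 10.9, 12.1 and 12.7 CPM with TRAM2-KO2. The 3 groups did not overlap, with controls lowest and TRAM2-KO2 highest. ATF3 rose by 0.64 (SE 0.0910, 0.44 to 0.84), or 1.56-fold, with TRAM2-KO2, at an adjusted p of 0.00267. With TRAM2-KO1 it rose by 0.42 (SE 0.0925, 0.22 to 0.63), or 1.34-fold, at an adjusted p of 0.0384. The difference between the guides was 0.22 (0.02 to 0.41), at an adjusted p of 0.213. The rise with TRAM2-KO2 passed under all 20 alternative settings, and that with TRAM2-KO1 under 8 of 21, where the adjusted p ranged from 0.0155 to 0.297. Without control library B, control library C or TRAM2-KO1 library B the latter was 0.159, 0.163 and 0.125. ATF3 lies on chromosome 1 (212738676 to 212794119 on GRCh37, plus strand). Of its 10 quantified transcripts the 4-exon ATF3-202 held 60.1% of the reads pooled over all libraries. In control library C and TRAM2-KO2 library C, however, ATF3-202 had 0 reads and the 4-exon ATF3-206 had 139 and 267. The assignment of ATF3 reads to single transcripts is thus unsteady.

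Read against all genes, these are counts of few members. With TRAM2-KO1, 2 of the 10 genes rose, where 0.753% of all genes tested did. By the call that also asks for a log2 fold change above 0.5, EGR1 alone was called, where 0.0528% of all genes were called higher. With TRAM2-KO2, EGR1 and ATF3 were again the 2 that rose, where 1.73% of all genes did. ATF3 alone was called, where 0.343% of all genes were called higher. In edgeR none of the 10 fell with either guide, where 2.15% of all genes fell with TRAM2-KO1 and 2.49% with TRAM2-KO2. At an unadjusted p under 0.05, 3 of the 10 were lower with TRAM2-KO1 (FOSL2, IER3 and JUNB) and 2 higher, where 10.0% of all genes were lower and 8.51% higher. With TRAM2-KO2, 0 were lower and 3 higher (EGR1, ATF3 and IER2), where the shares of all genes were 8.18% and 6.84%. DESeq2 also gave 0 that fell with either guide (with TRAM2-KO1, FOS and FOSB had no adjusted p in DESeq2). Both guides were compared with the same 3 controls, so the counts are not independent of each other.

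**Figure D3:**
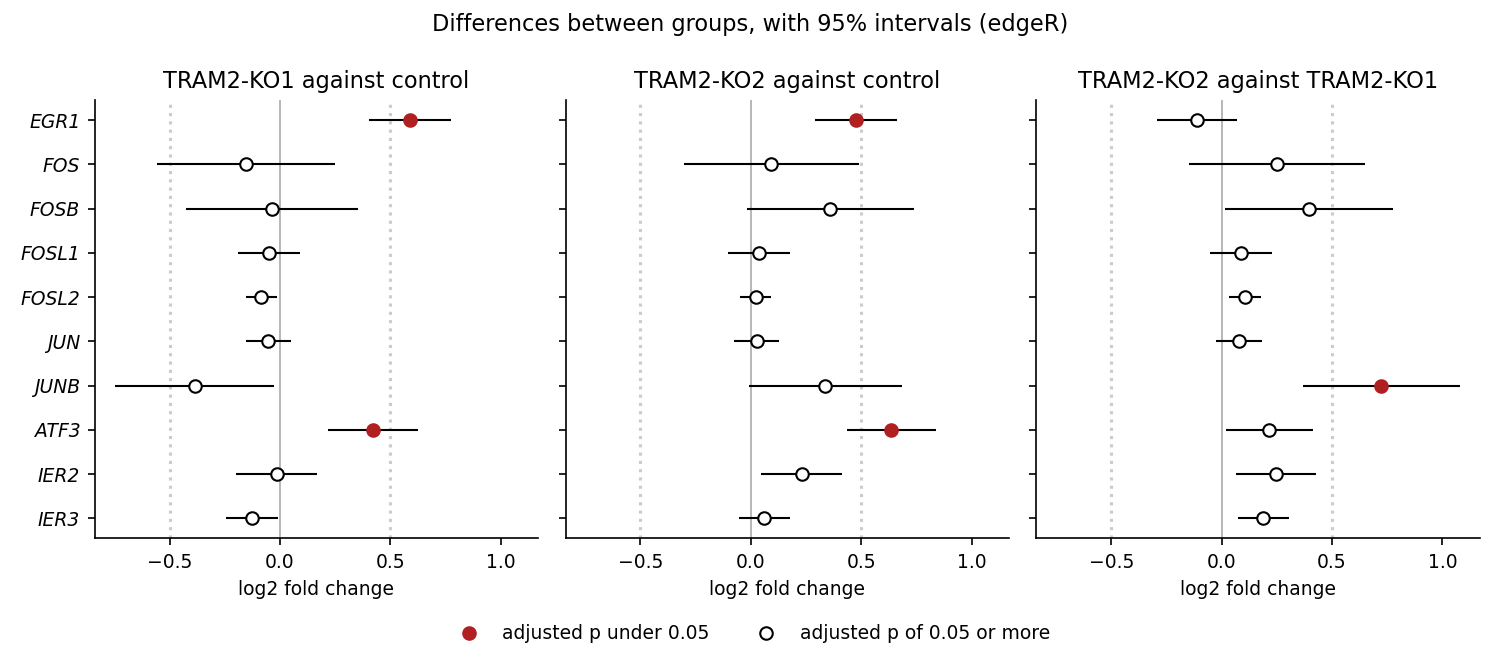
Log2 fold changes of the 10 genes in the 3 comparisons (horizontal axis), with 95% intervals from edgeR and dotted lines at 0.5 in either direction. Red points mark an adjusted p under 0.05, namely EGR1 and ATF3 with each guide and JUNB between the guides.

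The remaining Fos genes gave no change that passed. FOSL1 lay at 148 to 159 CPM in controls, at 132 to 163 CPM with TRAM2-KO1 and at 155 to 162 CPM with TRAM2-KO2, and its log2 fold changes were -0.05 (-0.19 to 0.09) and 0.04 (-0.10 to 0.18). FOSL2 was at 227, 228 and 232 CPM in controls and at 223, 207 and 217 CPM with TRAM2-KO1. These 2 groups did not overlap, but the log2 fold change was only -0.08 (-0.16 to -0.01), with an adjusted p of 0.199. FOSL2 with TRAM2-KO2 was at 230 to 236 CPM, with a log2 fold change of 0.02 (-0.05 to 0.09). The widest bounds of these 4 intervals were -0.19 and 0.18, both of FOSL1.

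FOS and FOSB, with few reads, had wider intervals. FOS was at 2.41, 3.61 and 3.11 CPM in controls, at 3.32, 2.31 and 2.53 CPM with TRAM2-KO1 and at 2.99, 3.44 and 3.32 CPM with TRAM2-KO2. All groups overlapped, and the log2 fold changes were -0.16 (-0.56 to 0.25) with TRAM2-KO1 and 0.09 (-0.30 to 0.49) with TRAM2-KO2. FOSB was at 3.39, 3.32 and 2.58 CPM in controls and at 3.57, 2.40 and 3.04 CPM with TRAM2-KO1. The FOSB values with TRAM2-KO2, 4.03, 3.44 and 4.45 CPM, lay just above those of controls, with a log2 fold change of 0.36 (-0.02 to 0.74) and an adjusted p of 0.366. FOSB overlaps ERCC1 on the opposite strand, which had 1426 to 1920 reads, and whether the counting used strand is not clear from the sources used here. Between the guides FOSB differed by 0.40 (0.017 to 0.776), at an adjusted p of 0.232, and FOS by 0.25 (-0.15 to 0.65), at an adjusted p of 0.480.

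Of the Jun genes, JUN showed little spread, at 96.1 to 102 CPM in controls, 90.6 to 101 CPM with TRAM2-KO1 and 97.3 to 105 CPM with TRAM2-KO2. Its log2 fold changes were -0.05 (-0.16 to 0.05) and 0.03 (-0.08 to 0.13). JUN encodes the Jun protein that activates strongly in AP-1, and it was quantified on 1 transcript of 1 exon.

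JUNB, whose product is a weaker activator and can oppose JUN, gave the largest difference among the 10 between the guides. It was at 28.8, 27.9 and 24.5 CPM in controls and at 34.1, 37.8 and 30.8 CPM with TRAM2-KO2. With TRAM2-KO1 it was at 27.2 CPM in library A, among the controls, and at 16.0 and 18.5 CPM in libraries B and C. Libraries B and C are those whose counts fell with GC content, while those of TRAM2-KO2 library A rose with it (0.395). JUNB was higher with TRAM2-KO2 than with TRAM2-KO1 by 0.72 (SE 0.160, 0.37 to 1.08), or 1.65-fold, at an adjusted p of 0.0478. Against controls it gave -0.39 (-0.75 to -0.03) with TRAM2-KO1, at an adjusted p of 0.241, and 0.34 (-0.01 to 0.68) with TRAM2-KO2, at an adjusted p of 0.355.

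The size of the JUNB difference depended on the TRAM2-KO1 libraries. With the trend of log2 values on GC content removed from each library, JUNB was at 25.9, 20.3 and 21.0 CPM with TRAM2-KO1 and at 30.8, 35.2 and 31.4 CPM with TRAM2-KO2. The difference was then 0.52 (SE 0.0917), at an adjusted p of 0.0114. With library A as the only one of TRAM2-KO1, it was 0.33 (SE 0.115) and did not pass, at an adjusted p of 0.381. Without library A it was 0.98, at an adjusted p of 0.00113, and of the 9 fits that each left out 1 library this was the only one in which it passed. The other 8 gave adjusted p values of 0.0715 to 0.190. JUNB (chromosome 19, 12902300 to 12904129 on GRCh37, plus strand) was quantified on 1 transcript of 1 exon and overlaps HOOK2, with 167 to 237 reads, on the opposite strand. With the GC trend removed the rise against controls with TRAM2-KO2, 0.35, also passed, at an adjusted p of 0.0373. Over all alternatives this adjusted p ranged from 0.0373 to 0.673, and that of the difference between the guides from 2.1e-04 to 0.381. The part of GC content in the JUNB difference was not tested beyond these fits.

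**Figure D4:**
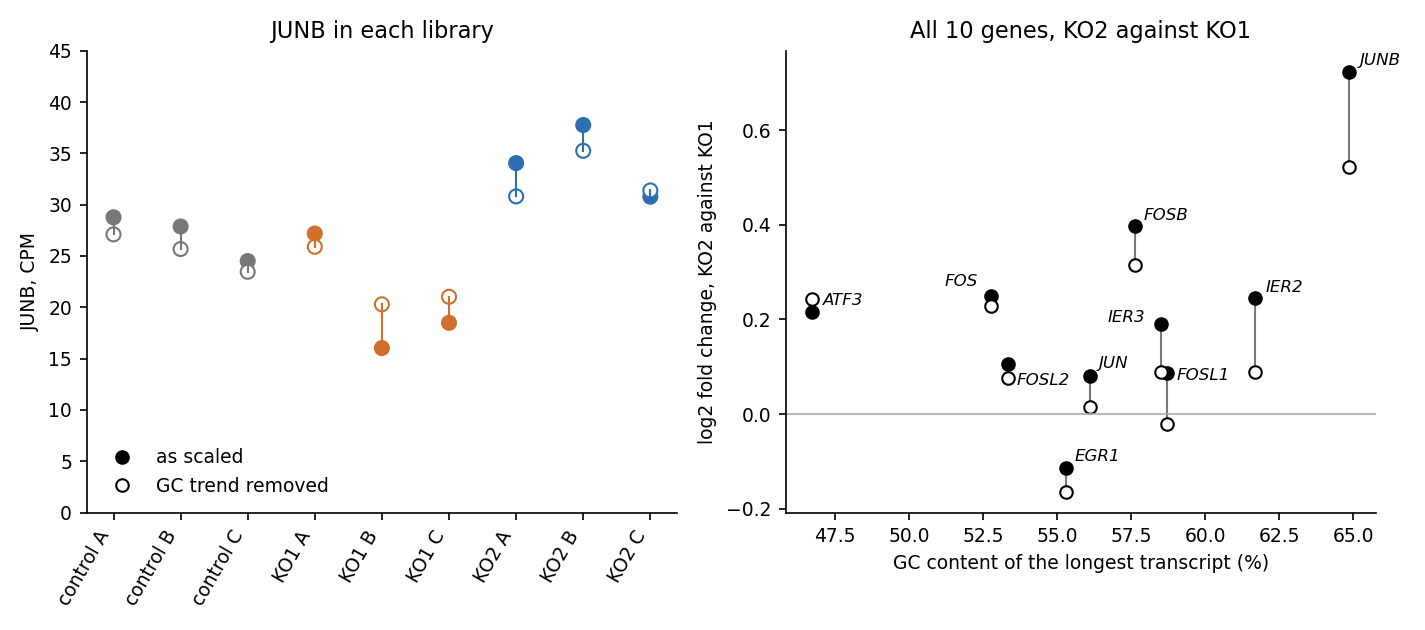
Left, JUNB in each library in CPM as scaled (filled) and with the GC trend removed (open). Right, log2 fold change of TRAM2-KO2 against TRAM2-KO1 for the 10 genes against the GC content of the longest transcript, before (filled) and after (open) removal of the trend. Removal moved JUNB from 0.72 to 0.52 and IER2 from 0.25 to 0.09.

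IER2 and IER3 moved less. IER2 was at 25.5, 27.1 and 23.6 CPM in controls, 27.9, 23.2 and 24.2 CPM with TRAM2-KO1, and 30.2, 31.7 and 27.5 CPM with TRAM2-KO2. The TRAM2-KO2 values lay above the controls, with a log2 fold change of 0.23 (0.05 to 0.41) and an adjusted p of 0.194. It passed after removal of the GC trend, at 0.24 and an adjusted p of 0.0155, in a range of 0.0106 to 0.466 over its alternatives. IER3 was at 56.5 to 61.8 CPM in controls, 49.7 to 56.5 CPM with TRAM2-KO1 and 59.7 to 62.1 CPM with TRAM2-KO2. IER3 gave -0.13 (-0.24 to -0.01) with TRAM2-KO1, at an adjusted p of 0.232, and 0.06 (-0.05 to 0.18) with TRAM2-KO2. Between the guides it differed by 0.19 (0.07 to 0.31), at an adjusted p of 0.0927, and by 0.09 without the GC trend.

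Between the guides, JUNB alone of the 10 genes rose and was called, where 1.41% of all genes tested were higher with TRAM2-KO2, 0.865% lower and 0.416% called higher. None was lower in edgeR, at an unadjusted p under 0.05 or in DESeq2. At that unadjusted p, 6 of the 10 were higher with TRAM2-KO2 (FOSB, FOSL2, JUNB, ATF3, IER2 and IER3), where 10.3% of all genes were higher and 9.54% lower. Groups that did not overlap are common in these data. Of the 10 genes, 4 did not overlap between TRAM2-KO1 and controls, where 23.0% of all genes did not. For TRAM2-KO2 and controls the count was 5, where the share of all genes was 23.6%, and between the guides it was 4, where the share was 21.4%. The median log2 fold change of the 10 genes was -0.05 with TRAM2-KO1, 0.16 with TRAM2-KO2 and 0.20 between the guides, where the median over all genes was 0.0051, -0.0032 and -0.0074. With TRAM2-KO2 all 10 estimates were positive, and with TRAM2-KO1 only those of EGR1 and ATF3. By library, the median of the 10 genes relative to the control means was 0.16, 0.17 and 0.13 with TRAM2-KO2. With TRAM2-KO1 it was 0.08 in library A and -0.18 and -0.06 in libraries B and C.

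The genes upstream in the pathway gave few changes. Of 26 genes tested from the EGF receptor to the ERK, JNK and p38 kinases, 0 passed in edgeR with either guide, although 4 had an unadjusted p under 0.05 with TRAM2-KO1 and 3 with TRAM2-KO2. DESeq2 gave 1 that fell with TRAM2-KO1. RPS6KA4, the gene for the kinase MSK2, had the smallest p with TRAM2-KO1, at -0.28 (adjusted p 0.0926). RPS6KA1, the gene for the ERK-activated kinase RSK1, had it with TRAM2-KO2, at 0.14 (adjusted p 0.103), and was higher with TRAM2-KO2 than with TRAM2-KO1 by 0.20, at an adjusted p of 0.0329. The factors that act on immediate early promoters, SRF, its partners and CREB, gave 0 of 7 in edgeR and DESeq2 in each comparison, and at an unadjusted p only SRF with TRAM2-KO2 and MRTFA between the guides. SRF was at 0.16 (adjusted p 0.193) with TRAM2-KO2. NAB1 and NAB2 encode corepressors that bind EGR1, and neither passed in edgeR or DESeq2. NAB2, with an unadjusted p under 0.05 against controls, had -0.18 with TRAM2-KO1 and -0.21 with TRAM2-KO2, at adjusted p values of 0.143 and 0.0842.

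Other bZIP genes that share AP-1 sites or partners were tested at 11 of 12, and 0 passed in edgeR or DESeq2 in any comparison. At an unadjusted p under 0.05 there was 1 in each, with JUND at -0.33 with TRAM2-KO1 (adjusted p 0.207) and JDP2, a repressor of AP-1, at -0.14 with TRAM2-KO2 (adjusted p 0.263).

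Other immediate early genes changed in both directions. With TRAM2-KO1, 2 of 36 rose and 3 fell, with a median of -0.01. KLF6, a zinc finger tumour suppressor gene, rose by 0.21 (SE 0.0284) and CCN2, a known YAP target gene for a matrix protein, by 0.16 (SE 0.0336). ID3, an inhibitor of bHLH factors, fell by 0.31 (SE 0.0550) on the log2 scale, and ZFP36L1, an mRNA decay factor, by 0.21 (SE 0.0406). With TRAM2-KO2, 4 rose and 4 fell, with a median of -0.04. KLF6 rose by 0.24 (SE 0.0283) and KLF4, a factor of epithelial differentiation, by 0.41 (SE 0.0678). DUSP1, a phosphatase of MAP kinases, fell by 0.29 (SE 0.0358) and BTG2, an antiproliferative gene, by 0.28 (SE 0.0550). The others that passed with TRAM2-KO2, named after their values were seen, were PPP1R15A at 0.28 and F3 at 0.11, which rose, and ZFP36L2 at -0.19 and CCN1 at -0.11, which fell. ZFP36L2 also made up the count with TRAM2-KO1. EGR2 and EGR4, close relatives of EGR1, did not pass the filter on low counts. EGR3, another relative, named after its values were seen, was tested but did not pass with either guide. It had 2 to 9 reads in controls, 5 to 9 with TRAM2-KO1 and 10 to 15 with TRAM2-KO2. The TRAM2-KO2 values, 0.395 to 0.547 CPM, lay above the controls, at 0.0820 to 0.369 CPM. EGR3 passed the filter on low counts through the TRAM2-KO2 libraries. With TRAM2-KO1 its log2 fold change was 0.59 (-0.56 to 1.75), at an adjusted p of 0.590 in edgeR.

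Of the genes listed for feedback on ERK signalling, those that passed rose. DUSP1, which fell with TRAM2-KO2, was placed in the list of other immediate early genes, although its product acts on MAP kinases too, so the single direction holds for the list as drawn. With TRAM2-KO1, 2 of 19 rose and 0 fell, and with TRAM2-KO2, 5 rose and 0 fell, with medians of 0.03 and 0.03. At an unadjusted p, 1 was lower with TRAM2-KO1 and 2 with TRAM2-KO2, and DESeq2 gave 0 that fell. Of the 19 estimates with TRAM2-KO2, 12 were positive. The phosphatase genes DUSP6 and DUSP7, named after their values were seen, lay below controls with TRAM2-KO2 but did not pass. DUSP6 was at 26.6 to 28.5 CPM there and at 29.7 to 33.2 CPM in controls, and DUSP7 at 41.9 to 48.3 and 50.2 to 52.9 CPM. ERRFI1, an inhibitor of the EGF receptor, was at 145 to 148 CPM in controls, 171 to 182 CPM with TRAM2-KO1 and 195 to 202 CPM with TRAM2-KO2. With TRAM2-KO1 it rose by 0.28 (SE 0.0314) at an adjusted p of 7.7e-04, and with TRAM2-KO2 by 0.44 (SE 0.0312) at 2.8e-05, and the groups did not overlap. DUSP5, a nuclear phosphatase of ERK, rose by 0.24 and 0.27. DUSP4 and DUSP14, also MAP kinase phosphatases, rose by 0.25 and 0.16 with TRAM2-KO2, as did DUSP10, named here after its value was seen, by 0.48.

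Known AP-1 target genes went both ways as well. With TRAM2-KO1, 2 of 15 rose and 2 fell, and with TRAM2-KO2, 3 rose and 2 fell, with medians of -0.02 and 0.06. PTGS2, the gene for the inducible cyclooxygenase, was at 23.1 to 27.8 CPM in controls, 32.6 to 37.2 CPM with TRAM2-KO1 and 50.5 to 52.9 CPM with TRAM2-KO2. It rose by 0.45 (SE 0.0718) and 0.99 (SE 0.0702), and by 0.54 (SE 0.0683) between the guides. EREG, an EGF receptor ligand gene, rose by 0.85 (SE 0.141) with TRAM2-KO2, and HBEGF, another, by 0.20 (SE 0.0466) with TRAM2-KO1. The third that rose with TRAM2-KO2 was the cytokine gene IL6, named after its values were seen. It had 2 to 3 reads in controls, 2 to 10 with TRAM2-KO1 and 12 to 18 with TRAM2-KO2. IL6 passed the filter on low counts only through the TRAM2-KO2 libraries, so its place in the count of genes that rose is not independent of the filter. PLAUR, the urokinase receptor gene, fell by 0.22 and 0.25 with the respective guides on the log2 scale. With offsets for transcript length, which differ between libraries where transcript use differs, 10 of 45 changes of genes outside the 10 that the rule named still passed, among them ERRFI1 against controls with both guides.

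**Figure D5:**
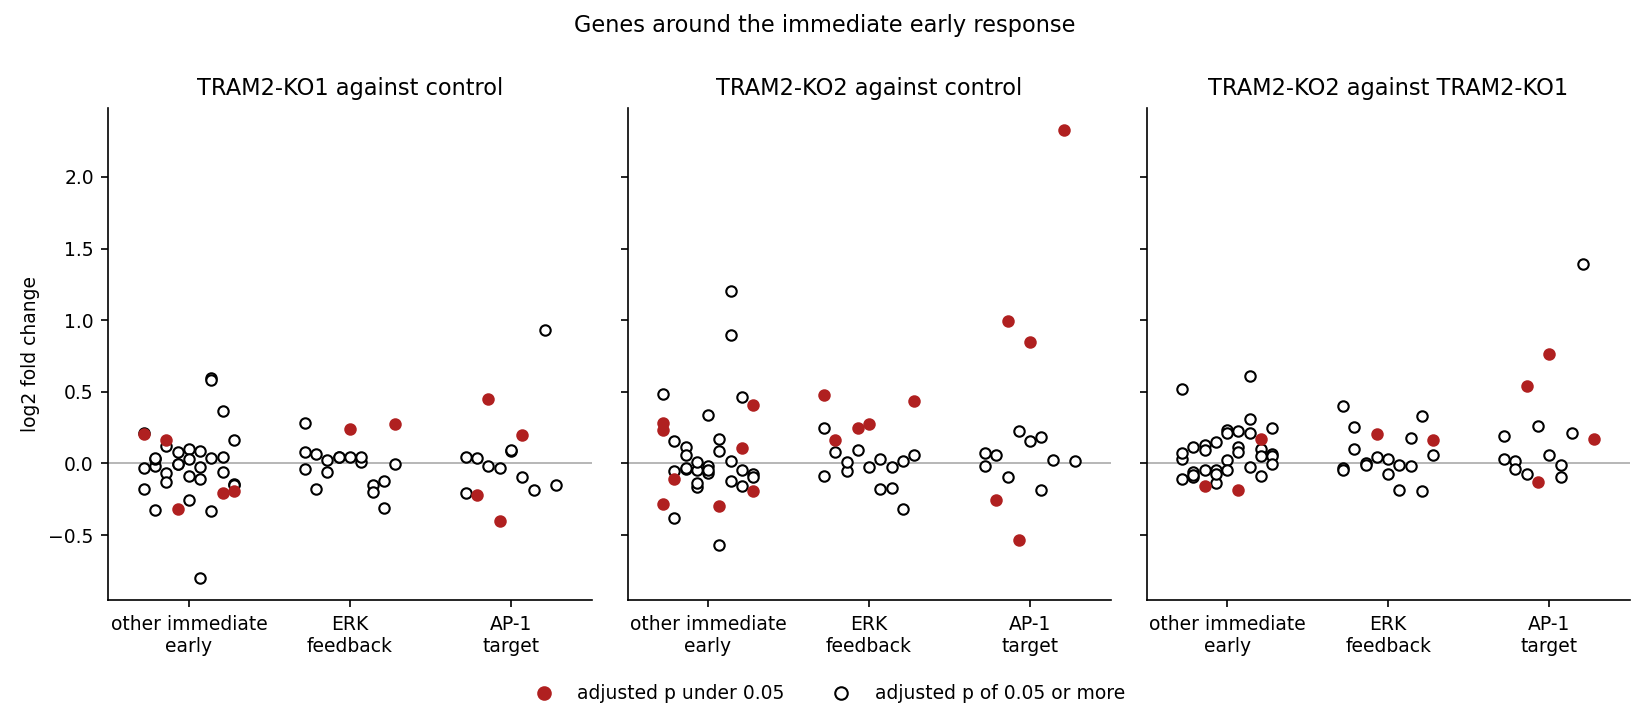
Log2 fold changes (vertical axis) of the other immediate early genes (36), ERK feedback genes (19) and AP-1 target genes (15) that were tested, 1 point per gene, in the 3 comparisons. Red points mark an adjusted p under 0.05 and appear on both sides of 0 in the outer lists, and above 0 in the ERK feedback list, which does not hold DUSP1.

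Genes for proteins that bind AU-rich mRNAs, a class to which immediate early mRNAs belong, include destabilisers such as the ZFP36 family and the stabiliser ELAVL1. They gave 2 of 7 that fell with TRAM2-KO1 and 1 with TRAM2-KO2, and 0 that rose in edgeR, at an unadjusted p or in DESeq2. ZFP36L2 fell by 0.19 with each guide and ZFP36L1, counted above as well, by 0.21 with TRAM2-KO1. With the GC trend removed neither passed with TRAM2-KO1, at adjusted p values of 0.0893 and 0.306.

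Among 10645 genes with a mean of at least 5 CPM, the profile most like that of EGR1 over the 9 libraries was that of ERRFI1. The measure was the mean absolute difference of log2 values relative to the control mean, which was 0.135 for ERRFI1. The 2 profiles still differed with TRAM2-KO1. There ERRFI1 stood at 0.22, 0.29 and 0.31 in libraries A, B and C, and EGR1 at 0.71, 0.37 and 0.66. CXADR, SPTLC3, GPAT3, SYT1 and MANEAL followed, at 0.137 to 0.151. For ATF3 the closest were HSD3B1, PTRHD1, NFKBIA, ERRFI1, PTGER4 and SLPI, at 0.114 to 0.151. For FOSL1 they were TRIM26, MARCHF4, NOP14-AS1, RNF165, C6orf132 and SPAG7, at 0.0272 to 0.0331. All 9 points of each profile come from the same libraries, so these distances are descriptions with no test.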

How the data were processed

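The authors trimmed reads with cutadapt and quantified transcripts with Salmon (versions, transcripts and build: not given in the sources used here). The deposited estimated counts per transcript, made by the authors with Salmon, were not normalised. The deposited TPM values were scaled by the authors over each library, and the deposited lengths were used for offsets. Per the labels the kit was not described as stranded, whereas the methods of the study name a stranded kit. The series design text names overexpression conditions at odds with the sample labels, from which groups were taken.

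Of 226030 transcripts, 220336 were matched to genes through GENCODE 44 lifted to GRCh37, and counts were summed per gene and rounded. edgeR 4.0.16 (R 4.3.3) kept genes by filterByExpr with a minimum of 10 reads, scaled by TMM and fitted a quasi-likelihood model to all 9 libraries with 3 groups. CPM values use TMM-adjusted library sizes. Tests were two-sided, with Benjamini-Hochberg adjustment over 15139 genes. "Rose" and "fell" mean an adjusted p under 0.05, and a call also needs a log2 fold change beyond 0.5. Intervals are at 95%. The biological coefficient of variation was 5.86%. The fit was tested on simulated counts that held no GC trend, so that test does not cover the trend in libraries B and C of TRAM2-KO1.

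The members and lists were chosen with earlier results of these data known. The 10 members and TRAM2 are named, as are, of each other list and comparison, up to 4 genes that passed with the smallest p (or the 1 with the smallest p), and the 6 genes most like EGR1, ATF3 and FOSL1. Single values of a few listed genes are not reported here, though counts over their lists include them. Alternatives were RLE scaling, DESeq2 1.42.0, no filter, a mean of at least 5 CPM, the 2 groups alone, the letter as block, GC-trend removal (loess span 0.5), length offsets, limma 3.58.1 on log2(TPM + 0.5), protein-coding transcripts, each library left out and TRAM2-KO1 library A alone. No pair of libraries of a group agreed within sampling noise. Figures were drawn with matplotlib 3.10.9.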

Additional observations from a re-analysis of the deposited data

Results flagged for a closer look

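Differences between the effects of the 2 guides that passed edgeR's test of the difference itself (TRAM2-KO2 against TRAM2-KO1, log2 fold change, adjusted p under 0.05) were found for 1 of the 10 genes and for 9 genes named from the lists around them. The count leaves out the cell type markers, of which 7 basal ones were higher with TRAM2-KO2 as given above. It also leaves out genes whose single values are not reported here. JUNB differed by 0.72, with the limits given above for libraries B and C of TRAM2-KO1. Of the AP-1 target genes, EREG differed by 0.76, PTGS2 by 0.54 and the differentiation gene IVL by 0.17. Of other immediate early genes, DUSP1 differed by -0.18, the kinase gene SGK1 by -0.15 and the tissue factor gene F3 by 0.17. ERRFI1 differed by 0.16, DUSP4 by 0.20 and RPS6KA1 by 0.20. With the GC trend removed, IVL (0.06), SGK1 (-0.10) and RPS6KA1 (0.13) no longer passed.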

How the results depend on the processing

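EGR1 passed with TRAM2-KO1 under 20 of 21 alternatives and ATF3 with TRAM2-KO2 under all 20, while ATF3 with TRAM2-KO1 and JUNB between the guides passed under 8 of 21 each. The cause of the changes below was not tested. With TRAM2-KO1, 2 of the 10 genes passed in the fit as reported, and 1 did with the 2 groups alone, protein-coding transcripts, the replicate block, the block with the GC trend removed, library A alone and length offsets, 0 with limma on TPM, and 1 to 4 without 1 library (4 without TRAM2-KO1 library A). With TRAM2-KO2, 4 passed with the GC trend removed, with or without the replicate block, 1 with limma or length offsets, and 1 to 2 without 1 library (1 without control library A). Between the guides, 2 passed without a filter, 0 with limma, the 2 groups alone, protein-coding transcripts, library A alone or length offsets, and 0 to 4 without 1 library (4 without TRAM2-KO1 library A).

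Over all genes, 73 were called with TRAM2-KO1. The count was 47 with the GC trend removed (with or without the block), 39 with limma, 152 without a filter, 46 with library A alone, 38 with length offsets and 54 to 352 without 1 library, the highest without TRAM2-KO1 library A. With TRAM2-KO2, 98 were called, against 47 with limma, 58 at a mean of 5 CPM, 58 with length offsets and 69 to 106 without 1 library. Between the guides 72 were called, against 26 with limma, 162 without a filter, 44 with the 2 groups alone, 35 with library A alone, 24 with length offsets and 41 to 315 without 1 library, 315 without TRAM2-KO1 library A and 41 without TRAM2-KO2 library A or B.

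Estimates that changed sign all belonged to differences that did not pass. With TRAM2-KO1 library A alone, values turned to 0.12 (FOS), 0.20 (FOSB), 0.023 (JUN), 0.0040 (JUNB) and 0.13 (IER2) with TRAM2-KO1, and to -0.025 for FOS between the guides. Removing the GC trend, without and with the replicate block, turned FOSB with TRAM2-KO1 to 0.056 and 0.046, FOSL1 to 0.067 and 0.064, JUN to 0.019 and 0.020, IER2 to 0.15 and 0.16, and FOSL1 between the guides to -0.021 and -0.019. Leaving out 1 library gave -0.18 to 0.092 for FOSB, -0.13 to 0.022 for FOSL1 and -0.10 to 0.033 for IER2 with TRAM2-KO1, and -0.048 to 0.23 for FOS with TRAM2-KO2. With TRAM2-KO2, FOS turned to -0.64 with length offsets and -0.50 with limma, FOSB to -0.069 and -0.014, and FOSL2 to -0.0048 with the offsets.

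Same-lettered libraries did not deviate together (correlations of -0.0881 to 0.107 over 9 pairs), and pairs of different letters gave -0.155 to 0.129. These correlations cannot tell whether libraries of a letter shared a culture or preparation batch, and the labels do not say. With the replicate block 404, 568 and 275 genes passed in the 3 comparisons, against 440, 639 and 344 without it, and ATF3 with TRAM2-KO1 was at 0.42 with an adjusted p of 0.0735. Of 45 changes of listed genes outside the 10, 39 still passed with the block, 40 with the GC trend removed, 43 in DESeq2 and 10 with length offsets. FOS and FOSB had 50 to 122 reads each, and a mean of 5 CPM leaves both out. DESeq2 gave neither an adjusted p in 2 of 3 comparisons.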
